A study of Mus musculus with 4 samples.

Results

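The mouse replication-dependent histone genes are the protein-coding genes whose GENCODE M21 symbols begin with *Hist1h*, *Hist2h*, *Hist3h* or *Hist4h*. By this rule 67 of the 55573 genes in the count lists were members, namely 6 for the linker histone H1, 18 for H2A, 18 for H2B, 12 for H3 and 13 for H4. The rule uses the symbols alone and no measured value. Of the 67 genes, 54 lie on chromosome 13, 10 on chromosome 3, 2 on chromosome 11 and 1 on chromosome 6 (GRCm38), and 62 have a single exon.

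Core histones H2A, H2B, H3 and H4 wrap DNA into nucleosomes, and H1 binds the DNA between them. Dividing cells make most of this protein in S phase from clustered, mostly intronless genes, whose mRNAs end in a conserved stem-loop that is bound by SLBP in place of a poly(A) tail. Some of these genes also give polyadenylated mRNAs in cells that have left the cell cycle, and variant histones outside the clusters, such as H3.3, are made from ordinary polyadenylated mRNAs at any time.

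RNA was sequenced from living tdTomato-positive cells that were sorted by flow cytometry at E16, with the day of insemination counted as E1, from *Hmx3-Cre/tdTomato/Dnmt1* wild-type (WT) and *Hmx3-Cre/tdTomato/Dnmt1* loxP2 (KO) mouse embryos on a C57BL/6J background. All embryos carried the *Hmx3-Cre* driver and the reporter, and in KO the loxP sites flank exons 4 and 5 of *Dnmt1*, the maintenance DNA methyltransferase, so that the gene was deleted only in cells with a history of *Hmx3* expression. The labels give the basal telencephalon as the tissue, whereas the study's text gives the preoptic area (POA). Each genotype had 2 libraries, from pools of 12 WT and 6 KO embryos, which the labels call biological replicates and the study's text calls technical duplicates, so that SDs and p-values describe the spread between libraries only.

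The libraries held between 8075102 and 9995968 counts, and 3 counts, taken as the lowest level that can be told from 0, corresponded to 0.294 to 0.372 CPM, which are counts relative to the TMM-scaled library size. Such limits cover counting error only. The 2 WT libraries differed from each other by more than the 2 KO libraries did, with a chi-square per degree of freedom of 57.2 against 4.28. The mitochondrial rRNA share was 8.66% in WT 1 and 1.51% to 2.32% in the other 3 libraries. *Dnmt1* had 3103 counts in WT 1, 4557 in WT 2, 2383 in KO 1 and 2552 in KO 2. The KO values lay under the WT values, with a log2 fold change of -0.56 (SE 0.14, edgeR adjusted p = 0.0511), which missed the threshold of 0.05. Whether it passed depended on the fit, as listed at the end. These counts cover the whole gene and not the loxP-flanked exons alone, so that they do not measure the deletion itself. The 11 GABAergic POA neuron markers were all measured, at a summed level of 1695 to 1972 CPM in WT and 1455 to 1536 CPM in KO, with a median log2 fold change of -0.29. None passed the test, against 7.90% of all tested genes, and in 6 of them the KO values all lay under the WT values, against 25.2%.

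The hallmark of these mRNAs, the stem-loop, was looked for in the 200 bases after the stop codon as a run of 16 letters that opens with GG, closes with CC and has a fully paired stem around a loop of T, any base, T, any base, with G-U pairs allowed. It was present in 46 of the 52 members with enough annotated sequence (88.5%), against 0.0381% of the other protein-coding genes. It lay 21 to 58 bases after the stop codon, with a median of 31. The sequences below show forms of the stem-loop, in capitals, from each histone type, of which those of H4 differ from the rest in the stem, read from GENCODE M21 transcripts (GRCm38).

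*Hist1h1e*, H1, chr13:23621777-23621802, minus strand: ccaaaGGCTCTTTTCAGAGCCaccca
*Hist3h2a*, H2A, chr11:58955167-58955192, plus strand: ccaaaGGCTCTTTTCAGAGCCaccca
*Hist1h2bb*, H2B, chr13:23747198-23747223, plus strand: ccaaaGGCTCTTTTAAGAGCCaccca
*Hist1h3e*, H3, chr13:23561898-23561923, minus strand: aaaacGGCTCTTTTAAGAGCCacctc
*Hist1h4h*, H4, chr13:23531453-23531478, plus strand: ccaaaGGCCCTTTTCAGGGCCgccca
*Hist1h4b*, H4, chr13:23757361-23757386, plus strand: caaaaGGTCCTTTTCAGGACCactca

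The stem opened with GGCTC in all 4 H1, 11 H2A, 10 H2B and 9 H3 genes that had a stem-loop, and with GGCCC or GGTCC in all 12 H4 genes that had one. Altogether 8 forms were present, of which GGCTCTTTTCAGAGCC was shared by 26 members, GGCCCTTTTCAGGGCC by 7 and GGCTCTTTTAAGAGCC by 6. No match was found in *Hist1h1a*, *Hist1h2bc*, *Hist1h2bq*, *Hist1h2br*, *Hist2h2be* and *Hist2h3b*, and in the other 15 members fewer than 16 bases were annotated after the stop codon. In 23 members the annotated transcript went on for more than 100 bases beyond the stem-loop, as it did in *Hist3h2a* with 1643 bases, and in 23 it ended within 100 bases. The longer class held 6553, 12048, 7103 and 7985 counts in WT 1, WT 2, KO 1 and KO 2, and the shorter class 1828, 3712, 2524 and 2457. These are counts over whole transcripts that were not divided by length, and they do not measure the sequence beyond the stem-loop. Whether the libraries were made from poly(A)-selected RNA is not given in the sources used here, beyond the word mRNA in the labels, so that these counts cannot be taken as the full amount of stem-loop mRNA.

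Members are near copies of each other, which limits what a read can be assigned to. For each member, the share of its 50-base windows that occur in no other gene was computed from the annotated transcripts. The median share was 45.9%, and it was 98.8% for H1, 60.5% for H4, 53.1% for H2B, 38.0% for H3 and 27.0% for H2A. Of the 67 members, 11 had 0 counts in all 4 libraries, and 9 of these had under 20% unique windows. The other 2, *Hist1h2aa* and *Hist1h2ba*, encode H2A and H2B forms known from the testis and had 76.2% and 61.8% unique windows. A further 7 members, among them the testis gene *Hist1h1t*, had at most 10 counts in any library and did not pass the expression filter. How reads that match several genes were counted is not given in the sources used here, so that levels of single near-identical members are uncertain.

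**Figure D1:**
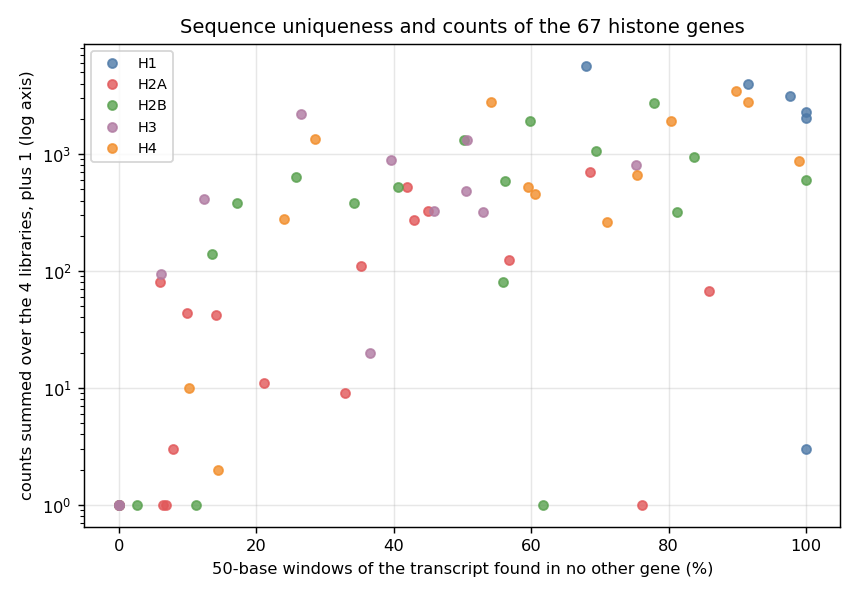
Counts of the 67 members summed over the 4 libraries, plus 1, on a log axis, against the share of their 50-base windows found in no other gene, in percent; points are genes, coloured by histone type. The genes at the bottom are the 11 without counts, 9 of which lie left of 20%.

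The remaining 49 members were compared between genotypes among 16832 tested genes. At an edgeR adjusted p under 0.05, 0 of the 49 members were higher and 1 was lower in KO, which is 2.04% of the tested members. Over all tested genes, 7.90% were called, 7.33% higher and 0.570% lower. At an unadjusted p under 0.05 there were 2 members, both lower, against 22.7% of all tested genes, and DESeq2 and limma-voom also called 0 members higher and 1 lower. The median log2 fold change of the members was -0.08, with 28 negative and 21 positive, beside a median of -0.03 over all tested genes. This split moved with the scaling, to 35 negative and 14 positive (median -0.16, all genes -0.01) with length and GC offsets and to 22 negative and 27 positive (median 0.02, all genes 0.08) with library size alone. The 95% interval of the log2 fold change lay between -1 and 1 for 31 members (63.3%, against 52.8% of all tested genes), and it reached beyond these bounds for the rest.

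**Figure D2:**
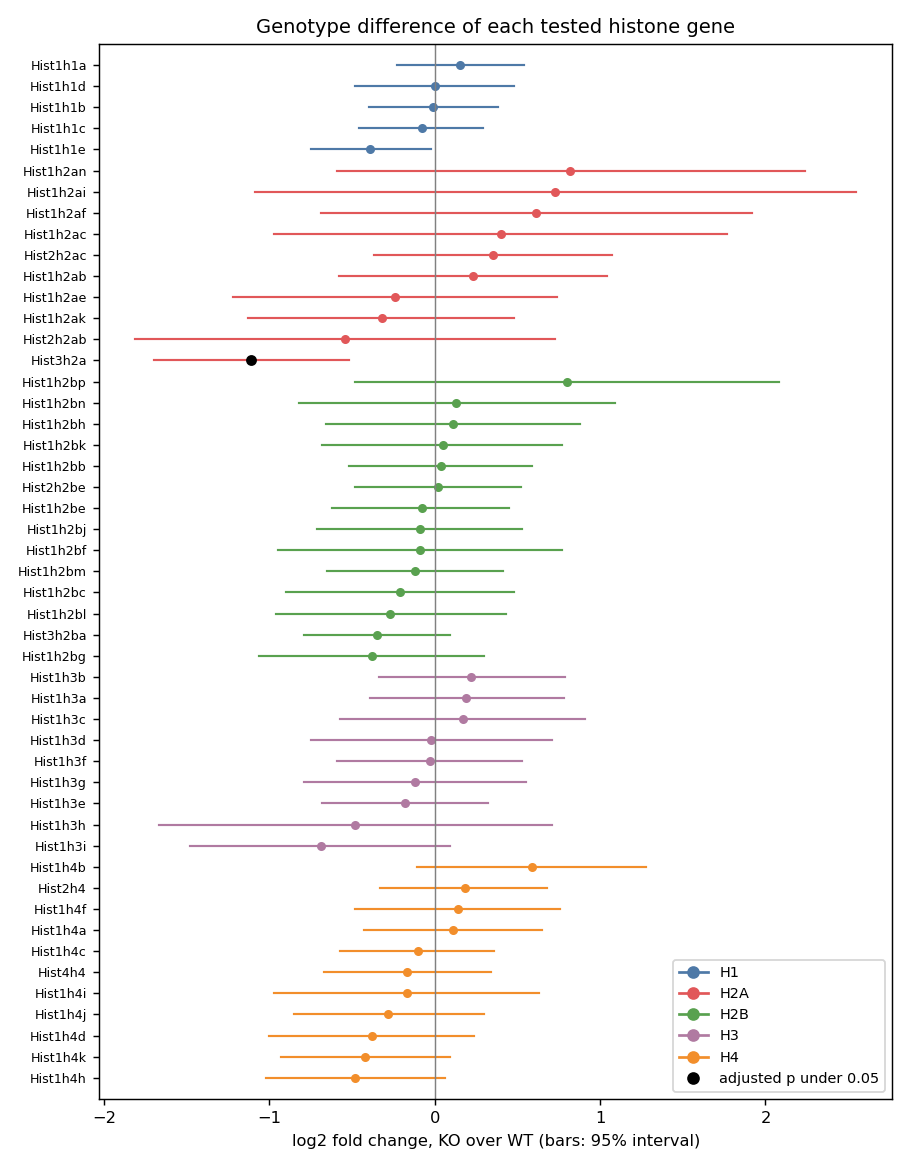
Log2 fold change of KO over WT (x axis) for the 49 tested members (y axis), with 95% intervals as bars, coloured by histone type. The black point, *Hist3h2a* at -1.11, is the one member with an adjusted p under 0.05.

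*Hist3h2a* encodes a core histone H2A in the small cluster on chromosome 11 (58954685 to 58956830, plus strand). It had 250 counts in WT 1, 229 in WT 2, 119 in KO 1 and 96 in KO 2. The groups did not overlap, with KO the lower, at 12.4 ± 2.53 CPM (SD, n = 2) against 26.7 ± 6.08 CPM (SD, n = 2). The log2 fold change was -1.11 (SE 0.26, edgeR adjusted p = 0.0353). It was -0.87 without WT 1 and -1.34 without WT 2, whereas without KO 2 it was -0.91 and the adjusted p rose to 0.213. The most abundant H2A gene in WT by CPM, *Hist3h2a* shares 33.0% of its exonic bases with *Trim17* on the same strand, where a read cannot be given to one gene rather than the other. *Trim17*, a ubiquitin ligase gene, was counted 29, 63, 42 and 33 times in WT 1, WT 2, KO 1 and KO 2, below *Hist3h2a* in each library. The adjacent H2B gene of the same cluster, *Hist3h2ba*, had 557, 1009, 558 and 596 counts in the same order. Its KO libraries lay at 66.3 and 65.6 CPM, just under WT 1 at 69.1 CPM and further under WT 2 at 98.9 CPM (log2 fold change -0.35, SE 0.19, edgeR adjusted p = 0.317).

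Markers of other cells moved with genotype in the same libraries. Over all tested genes, 7.33% were called higher in KO and 0.570% lower. The 12 astrocyte markers were all higher in KO, with a summed level of 171 to 186 CPM in WT and 3539 to 3724 CPM in KO. In addition, 10 of 15 oligodendrocyte markers (1414 to 1495 CPM in WT, 2271 to 2319 in KO), 7 of 8 mural cell markers (59.1 to 64.6 CPM, 445 to 450) and 3 of 10 radial glia markers (1136 to 1155 CPM, 1900 to 1980) were higher, and 3 of 10 pan-neuronal markers (5770 to 6386 CPM, 4267 to 4335) were lower. Microglia markers were higher in 2 of 8 (34.9 to 44.2 CPM in WT, 78.1 to 78.4 in KO). Of the erythroid markers 1 of 5 tested was lower (30.8 to 44.7 CPM, 18.9 to 19.2), as was 1 of 4 choroid plexus markers (54.6 to 70.7 CPM, 8.56 to 9.36), and 0 of 7 endothelial markers passed the test (21.4 to 23.2 CPM, 24.5 to 27.5). Of all these lists, *Hbb-y* alone was at 0 in every library. Their part in the histone values was not tested, and in sorted bulk RNA fewer cells of a type and less RNA per cell cannot be told apart.

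The histone mRNAs differed most between the 2 WT libraries. The 67 members together had 10068 counts in WT 1, 18811 in WT 2, 11596 in KO 1 and 12628 in KO 2, or 1250, 1843, 1379 and 1391 CPM. Both KO values fell within the WT range, and the ratio of the KO to the WT mean was 0.895. Of the 49 tested members, 44 were higher in WT 2 than in WT 1 (89.8%), against 47.0% of all tested genes, with a median difference of 0.59 in log2 CPM against -0.03. Between KO 2 and KO 1 the median difference was -0.01, and 23 members were higher in KO 2. Both KO values fell within the WT range in 24 members (49.0%, against 15.7% of all tested genes), and the WT difference exceeded the genotype difference in 43 members (87.8%, against 50.6%).

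**Figure D3:**
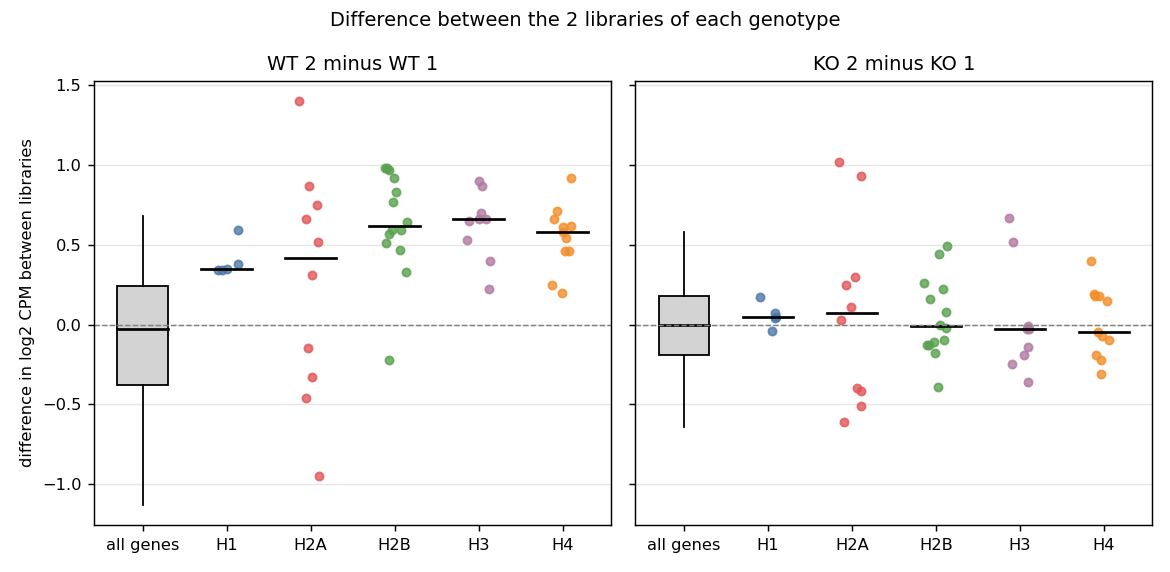
Difference in log2 CPM between the 2 WT libraries (left) and the 2 KO libraries (right). Points are the tested members by histone type with the median as a bar, and the box gives the quartiles, median and the range from the 5th to the 95th percentile of all 16832 tested genes. The members' median was 0.59 in WT and -0.01 in KO.

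The direction of the genotype difference followed the WT library used. As most members were higher in WT 2 than in WT 1, this largely restates the WT difference and is not a further result. Without WT 1, 40 of the 49 members had a negative log2 fold change (median -0.30), and 11 were called lower (22.4% of the members, against 7.15% of all genes called lower in that fit) and 0 higher. These were *Hist1h1e*, *Hist1h2bc*, *Hist1h2bg*, *Hist3h2a*, *Hist3h2ba*, *Hist1h3e*, *Hist1h3i*, *Hist1h4d*, *Hist1h4h*, *Hist1h4k* and *Hist4h4*. Without WT 2, 37 members had a positive log2 fold change (median 0.21), and *Hist1h2ab* (0.75), *Hist1h2bb* (0.47) and *Hist1h3b* (0.60) were called higher, against 11.2% of all genes called higher in that fit, with *Hist3h2a* alone called lower (1 of 49 members, against 12.0% of all genes called lower in that fit). In these fits the lone WT library is assumed to vary like the KO libraries. The median of all genes was 0.03 and 0.01 in these fits. With both WT libraries, and with offsets that remove each library's dependence on transcript length and GC, 5 members were called lower (10.2% of the members, against 5.20% of all genes), and 7 with the replicate block added (14.3%, against 7.07%), with 0 higher in either fit.

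**Figure D4:**
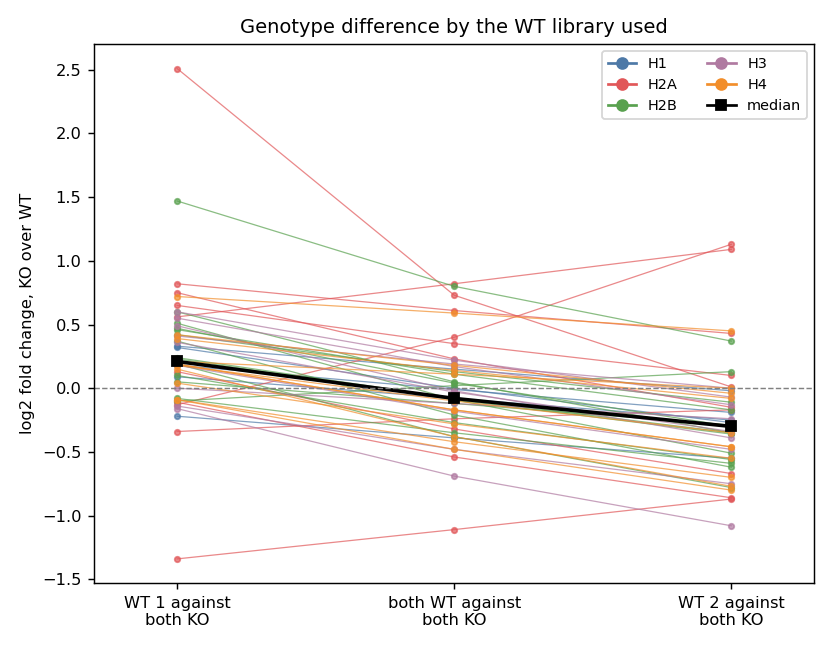
Log2 fold change of KO over WT (y axis) for each of the 49 tested members when WT 1 alone, both WT libraries or WT 2 alone are set against both KO libraries; lines join the values of a gene, coloured by histone type, and black squares are medians. The median passed from 0.21 over -0.08 to -0.30.

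Other measures of the WT libraries are given beside this difference. The summed level of 33 S phase genes was 807 CPM in WT 1 and 797 CPM in WT 2, with a median difference of 0.05 in log2 CPM, and that of 20 G2 and M phase genes was 866 and 809 CPM, with a median difference of 0.03. The WT difference also moved with base composition. In the lowest quartile of GC content, members left out, 13.1% of genes were higher in WT 2 (median difference -0.49), and in the highest quartile 74.7% were (median 0.21). The tested members had a median GC content of 56.2% and a median exonic length of 618 bases, against 49.0% and 4020 bases over all tested genes. With offsets that remove each library's dependence on transcript length and GC, 44 of the 49 members were still higher in WT 2, with a median difference of 0.47 against 0.02 over all tested genes. Among the 30 members with at least 50% unique windows, 86.7% were higher in WT 2 (median 0.56). The part of the mitochondrial rRNA share of WT 1 in this difference was not tested.

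**Figure D5:**
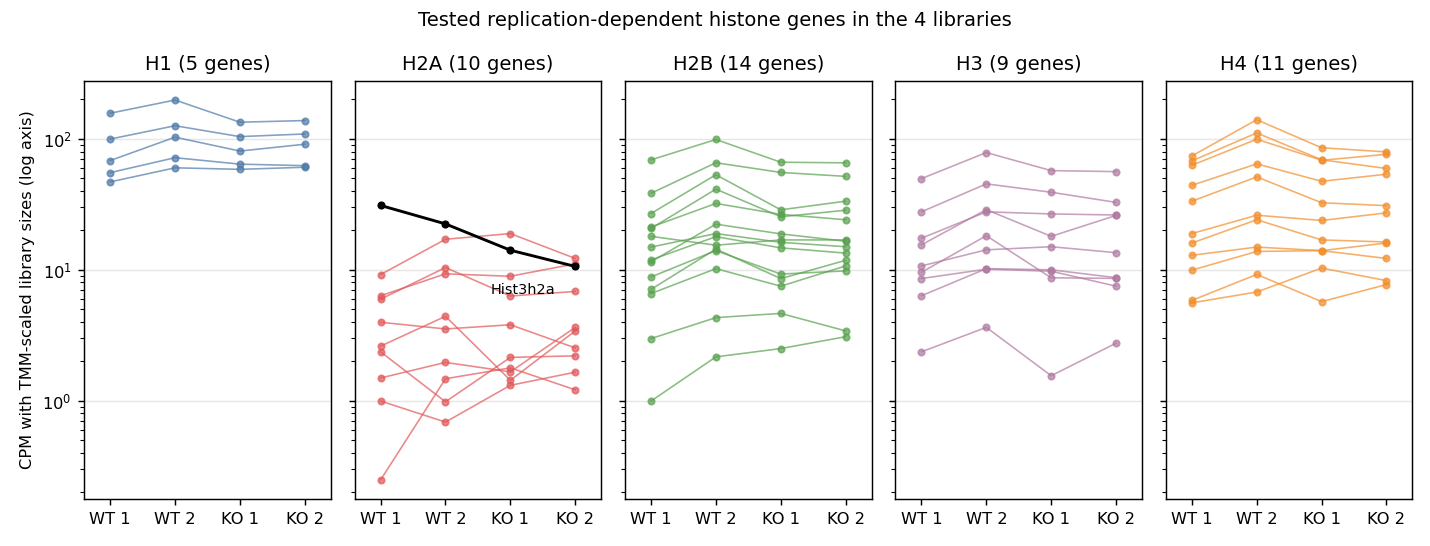
Level of each of the 49 tested members in the 4 libraries, in CPM on a log axis, in 1 panel per histone type; lines join the values of a gene. WT 2 is the highest library for most genes, the KO libraries are close to each other, and *Hist3h2a* (black) falls below both WT libraries in KO.

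For H1, all 5 tested genes were higher in WT 2 than in WT 1, and none was called between genotypes. *Hist1h1e*, the most abundant member of all by CPM, had 1261 counts in WT 1, 2023 in WT 2, 1127 in KO 1 and 1250 in KO 2. The KO libraries, at 134 and 138 CPM, were lower than the WT libraries, at 157 and 198 CPM, and the log2 fold change was -0.39 (SE 0.16, edgeR adjusted p = 0.200). A part of 25.7% of its exonic bases is shared on the same strand with *Hist1h2be* and *Gm11398*. *Hist1h1c* stood at 99.6, 126, 104 and 109 CPM in WT 1, WT 2, KO 1 and KO 2, with both KO libraries between the WT libraries (log2 fold change -0.08, SE 0.16). *Hist1h1a*, the highest of the 5 in log2 fold change, stood at 46.9, 60.1, 58.5 and 60.7 CPM (0.15, SE 0.17). The summed H1 level was 427, 559, 441 and 461 CPM.

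H2A was the least counted type. Its summed level was 64.7 CPM in WT 1, 73.6 in WT 2, 60.8 in KO 1 and 55.4 in KO 2, although H2A and H2B enter the nucleosome in equal number and H2B summed to 259, 411, 301 and 304 CPM. Per kilobase of exon, the tested H2A genes had a median of 6.08 CPM, against 27.4 CPM for the tested genes of the other types. All 18 H2A genes overlapped an annotated gene on the opposite strand, over 5.60% to 100% of their exonic bases, whereas 3 of the 49 other members did. Of the genes opposite H2A genes, only *Gm20632* and *Gm20633* had counts, at most 20 in a library. Both lie at H2A genes that were not tested. The strand setting of the counting is not given in the sources used here, and the part of this overlap and of the few unique windows in the H2A level was not tested. Of the types, H2A had the lowest share of genes higher in WT 2 than in WT 1, with 6 of 10 tested genes (60.0%), and the WT difference exceeded the genotype difference in 6. *Hist3h2a* itself was lower in WT 2, with a difference of -0.46 in log2 CPM. Besides *Hist3h2a*, *Hist1h2ab* had 74, 175, 159 and 111 counts in WT 1, WT 2, KO 1 and KO 2, with overlapping groups (log2 fold change 0.23, SE 0.35). *Hist1h2an* had the highest log2 fold change of all members, 0.82 (SE 0.61, edgeR adjusted p = 0.466), from 8, 7, 11 and 15 counts, with the KO values above the WT values but only 14.2% unique windows. The difference did not pass the test.

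In H2B, 13 of 14 tested genes were higher in WT 2, and the WT difference exceeded the genotype difference in all 14. *Hist1h2bb*, the most abundant after *Hist3h2ba*, stood at 38.4, 65.7, 55.4 and 51.7 CPM in WT 1, WT 2, KO 1 and KO 2. Both KO values fell within the WT range, and the log2 fold change was 0.04 (SE 0.24). *Hist1h2bg* had the lowest log2 fold change, -0.38 (SE 0.30, edgeR adjusted p = 0.492), with 26.9 and 53.2 CPM in WT against 28.7 and 33.4 CPM in KO. *Hist1h2bp* had the highest, 0.80 (SE 0.56, edgeR adjusted p = 0.435), from 8, 22, 21 and 28 counts, where KO 1 exceeded WT 2 only after scaling. The one exception to the WT pattern, *Hist2h2be*, whose transcript is 100% unique in 50-base windows, stood at 18.0, 15.4, 16.9 and 16.9 CPM.

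All 9 tested H3 genes were higher in WT 2 than in WT 1, and their summed level was 148, 237, 186 and 183 CPM in WT 1, WT 2, KO 1 and KO 2. *Hist1h3e* stood at 49.7, 78.6, 57.2 and 56.2 CPM, with both KO libraries between the WT libraries (log2 fold change -0.18, SE 0.22). *Hist1h3f* behaved alike, at 27.7, 45.3, 39.1 and 32.7 CPM (-0.03, SE 0.24), and so did *Hist1h3b*, at 17.4, 27.7, 26.7 and 26.2 CPM (0.22, SE 0.24). *Hist1h3i* had 77, 186, 73 and 78 counts in the same order. In CPM both KO libraries, at 8.68 and 8.59, were under WT 1, the lower of the WT libraries, at 9.56. KO 2 was under WT 1 only after scaling. The log2 fold change, the lowest of the type, was -0.69 (SE 0.34, edgeR adjusted p = 0.272). The value was -1.08 without WT 1 and -0.16 without WT 2. Only 12.4% of its windows are unique, so that its reads may not be separable from those of other H3 genes.

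All 11 tested H4 genes were likewise higher in WT 2. *Hist1h4d* had 596, 1433, 719 and 722 counts in WT 1, WT 2, KO 1 and KO 2, so that KO was within the WT range (log2 fold change -0.38, SE 0.27, edgeR adjusted p = 0.444). *Hist1h4h*, which at 191 CPM per kilobase in WT had the highest level per length of all members, stood at 67.8 and 111 CPM in WT and at 69.2 and 59.4 CPM in KO (log2 fold change -0.48, SE 0.23, edgeR adjusted p = 0.265), and the groups overlapped. *Hist1h4b* was the highest of the type in log2 fold change, 0.59 (SE 0.30, edgeR adjusted p = 0.294), with 5.59 and 6.76 CPM in WT and 10.3 and 8.26 CPM in KO, all KO values above the WT values. An antisense gene, *4930558J22Rik*, covers 56.2% of its exonic bases and had 0 counts in every library.

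In CPM, over all 49 members, both KO libraries lay above both WT libraries in 3 (28.3% of all tested genes did) and below in 5 (25.2%). The 3 were *Hist1h2an*, *Hist1h2bp* and *Hist1h4b*, and the 5 were *Hist1h1e*, *Hist3h2a*, *Hist3h2ba*, *Hist1h3i* and *Hist1h4k*. Of the members whose transcript ended within 100 bases of the stem-loop, 15 were tested, with a median log2 fold change of 0.14 and 0 calls, and of those with a longer transcript 20 were tested, with a median of -0.13 and 1 call. The median difference between WT 2 and WT 1 was 0.65 and 0.58 in these classes.

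Promoters from RefSeq (GRCm38.p6, 250 bases before to 50 after the start) were matched for 62 members and searched on both strands. TATAAA was present in 56.5% of them, against 13.6% of all promoters, and CCAAT in 85.5% against 37.4%. CCAAT was found in all H1, H2A, H2B and H3 promoters matched, but in 25% of the H4 promoters. The octamer ATTTGCAT was in 21% of the members, against 1.74% of all promoters, and all of these were H2A or H2B genes (38.9% and 37.5%). Where neighbouring genes start close together on opposite strands, 1 site can count for both, as in *Hist1h2ae* and *Hist1h2bg*. The H2A and H2B shares are thus not independent. The promoters of the called *Hist3h2a* and of the abundant H2B gene *Hist1h2bb* are shown with these letters in capitals.

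*Hist3h2a*, chr11:58954435-58954734, plus strand: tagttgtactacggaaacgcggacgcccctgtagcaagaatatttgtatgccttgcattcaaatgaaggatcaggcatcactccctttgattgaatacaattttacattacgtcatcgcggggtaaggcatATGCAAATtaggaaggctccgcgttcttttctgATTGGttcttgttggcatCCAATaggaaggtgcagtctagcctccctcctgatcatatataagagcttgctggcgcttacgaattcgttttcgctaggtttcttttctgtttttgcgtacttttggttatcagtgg
*Hist1h2bb*, chr13:23746484-23746783, plus strand: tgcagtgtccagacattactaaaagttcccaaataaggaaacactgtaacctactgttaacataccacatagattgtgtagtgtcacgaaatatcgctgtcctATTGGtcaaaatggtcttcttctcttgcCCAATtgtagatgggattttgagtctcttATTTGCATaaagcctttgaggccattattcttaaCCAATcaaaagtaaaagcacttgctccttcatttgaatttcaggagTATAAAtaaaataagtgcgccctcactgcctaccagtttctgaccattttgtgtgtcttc

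*Hist3h2a* held the octamer and CCAAT but not TATAAA, and *Hist1h2bb* held all of them. A match of letters is a description and not evidence of binding. Many H2A and H2B genes lie head to head, and 13 pairs of members shared a start region of 176 to 660 bases. The pair at 660 bases was an H2B and an H3 gene, *Hist1h2bh* and *Hist1h3f*. All other pairs were of an H2A and an H2B gene, at most 306 bases apart. In 7 pairs both genes were tested, and in 3 of these both fold changes had the same sign. The pair with the shortest distance, *Hist1h2ae* and *Hist1h2bg*, had log2 fold changes of -0.24 and -0.38.

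Genes that act on the members or replace them were taken from lists. Of 19 genes for histone gene transcription and mRNA end processing, 0 were called (7.90% of all tested genes were), with a median log2 fold change of -0.22. The stem-loop binding protein gene *Slbp* stood at 37.1, 35.5, 38.2 and 34.3 CPM in WT 1, WT 2, KO 1 and KO 2, with overlapping groups (log2 fold change 0.00, SE 0.16). *Npat*, the coactivator of histone gene transcription, stood at 52.8, 38.3, 37.8 and 41.2 CPM (-0.20, SE 0.19), and *Casp8ap2*, a component of the histone locus body, at 80.4, 54.4, 62.7 and 52.8 CPM (-0.22, SE 0.21). In contrast to most members, both were lower in WT 2 than in WT 1. Of 21 chaperone and nuclear import genes, 0 were called (7.90% of all tested genes were), with a median of -0.13.

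Among 33 S phase genes, 1 was higher and 1 lower in KO (median log2 fold change 0.03). *Tk1*, the thymidine kinase of S phase, rose from 3.60 and 4.21 CPM to 9.15 and 10.8 CPM (log2 fold change 1.35, SE 0.31, edgeR adjusted p = 0.0368). *Ccne2*, a cyclin of the G1/S transition, fell from 14.5 and 9.11 CPM to 3.80 and 3.52 CPM (-1.68, SE 0.35, edgeR adjusted p = 0.0223). The call of *Tk1* was lost without KO 1 (1.47) and without KO 2 (1.23). *Pcna*, the sliding clamp of DNA polymerase, had a WT mean of 25.2 ± 0.685 CPM (SD, n = 2), and the KO mean was 21.5 ± 0.678 CPM (SD, n = 2), without overlap (-0.23, SE 0.18, edgeR adjusted p = 0.501). Of 20 G2 and M phase genes 0 were called (7.90% of all tested genes were), with a median of -0.08. The proliferation marker *Mki67* stood at 215, 217, 217 and 203 CPM (-0.04, SE 0.13).

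Of the 11 variant histone genes outside the clusters, 1 was called lower (0.570% of all tested genes were) and 0 higher, and in 8 the KO values all lay under the WT values, as they did in 25.2% of all tested genes (median log2 fold change -0.25). *H3f3b*, which encodes the replacement histone H3.3, fell from 484 and 393 CPM in WT to 270 and 267 CPM in KO (-0.71, SE 0.15, edgeR adjusted p = 0.0255). The call was lost without KO 1 (-0.70) and without KO 2 (-0.69), while the value stayed. *H3f3a*, the other H3.3 gene, stood at 16.4, 20.4, 10.8 and 13.8 CPM (-0.58, SE 0.25, edgeR adjusted p = 0.212). *H2afz*, the gene of H2A.Z, stood at 11.8, 3.72, 2.85 and 1.76 CPM (-1.73, SE 0.59, edgeR adjusted p = 0.128). *H1f0*, the linker variant of non-dividing cells, stood at 177, 193, 157 and 169 CPM (-0.18, SE 0.14, edgeR adjusted p = 0.487). Whether variant and clustered histone genes differed in their response to genotype was not tested.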

How the data were processed

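The deposited values are unnormalized counts of reads on Ensembl genes, with a list for each library. The submitters' processing notes name CASAVA 1.8.2, STAR 2.5.2a and featureCounts 1.5.0-p1 with the builds mm10 and GRCm38. Strand and multi-mapping settings and RNA selection are not given in the sources used here. Groups came from the labels. Of the listed genes, 55480 were matched to GENCODE M21, which gave symbols, positions, stop codons and transcript sequences. After edgeR's expression filter, 16832 genes were fitted in edgeR 4.0.16 (R 4.3.3, limma 3.58.1) by the quasi-likelihood method with TMM factors, with genotype as the only term, Benjamini-Hochberg adjustment over all tested genes and a threshold of 0.05. SEs and 95% intervals were derived from the test statistic. CPM used TMM-scaled library sizes. No set test was run.

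Alternatives were DESeq2 1.42.0, limma-voom, other scalings, other filters, the replicate number as a block, length and GC offsets per library, removal of 393 mitochondrial and rRNA genes, other thresholds, and each library left out. The procedures were tested on simulated counts. Members were named when called, when among the 2 most abundant of their type by mean CPM, or when highest or lowest of their type in log2 fold change. *Dnmt1*, *Slbp*, *Npat*, *Casp8ap2*, *Pcna*, *Mki67*, *H2afz*, *H3f3a*, *H3f3b*, *H1f0* and up to 4 called genes of each list were named as well. Other members were named after their values were seen. The members and lists were chosen with earlier results of these data known.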

Additional observations from a re-analysis of the deposited data

How the results depend on the processing

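With 2 libraries per genotype, the sign of several values depended on which WT library was kept. The count of members higher in KO was 0 in every fit but the one without WT 2, so that it ranged from 0 to 3 with 1 library left out. The count lower was 1, ranged from 0 to 11 with 1 library left out, and was 5 with length and GC offsets (against 5.20% of all genes called lower in that fit), 7 with these offsets and the replicate block (7.07%) and 0 at an adjusted p under 0.01. With the offsets the called members were *Hist3h2ba*, *Hist3h2a*, *Hist1h4k*, *Hist1h4h* and *Hist1h1e*, to which the block added *Hist1h3i* and *Hist1h2bg*. No source used here says whether libraries with the same replicate number share a batch, and their deviations from the group means correlated with 0.159 across genes. The replicate block raised the calls over all genes from 1233 higher and 96 lower to 1625 and 619, and among the members it called *Hist3h2a* alone (-1.11, adjusted p = 0.00296). *Hist3h2a* stayed negative in all fits and missed the threshold of 0.05 only without KO 2.

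The log2 fold change of *Dnmt1* passed the threshold with DESeq2 (-0.57), limma-voom (-0.56), DESeq2 size factors (-0.57), no filter (-0.55), the replicate block (-0.56), length and GC offsets (-0.61), both together (-0.61), without mitochondrial and rRNA genes (-0.55), without WT 1 (-0.67) and without WT 2 (-0.46). Without KO 1 or KO 2 it was -0.55, with an adjusted p of 0.386 and 0.521, and it also missed the threshold with library size alone (-0.46, adjusted p = 0.151), upper-quartile scaling (-0.52, 0.0645) and at least 10 counts in every library (-0.52, 0.0739).

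Log2 fold changes that changed sign are given here for the genes selected by the naming rule only, and other members changed sign as well. With library size alone, which moved the median of all genes from -0.03 to 0.08, *Hist1h1c* was 0.02, *Hist1h3f* 0.06, *Slbp* 0.11 and *Mki67* 0.07. With upper-quartile scaling, *Hist1h3f* was 0.01 and *Slbp* 0.04. With at least 10 counts in every library, *Hist1h3f* was 0.01 and *Slbp* 0.03. *Slbp* was 0.00 with no filter and 0.01 without mitochondrial and rRNA genes, and *Hist1h3f* was 0.00 with the replicate block. With length and GC offsets, *Hist1h1a* was -0.01, *Hist1h2bb* -0.16, *Slbp* 0.09, *Npat* 0.03 and *Mki67* 0.01, and with the block added 0.00, -0.14, 0.09, 0.02 and 0.01. With 1 library left out, the ranges of these selected genes that crossed 0 were *Hist1h1c* (-0.25 to 0.09), *Hist1h1a* (-0.02 to 0.33), *Hist1h2ab* (-0.15 to 0.75), *Hist1h2bb* (-0.30 to 0.47), *Hist1h2bg* (-0.78 to 0.19), *Hist1h3e* (-0.48 to 0.18), *Hist1h3f* (-0.34 to 0.36), *Hist1h3b* (-0.07 to 0.60), *Hist1h4d* (-0.77 to 0.15), *Slbp* (-0.07 to 0.08), *Npat* (-0.43 to 0.04), *Casp8ap2* (-0.49 to 0.08) and *Mki67* (-0.08 to 0.01). Without crossing 0, *Hist1h1e* ranged from -0.55 to -0.22, *Hist3h2ba* from -0.59 to -0.08, *Hist1h3i* from -1.08 to -0.16, *Hist1h4h* from -0.80 to -0.09, *Hist1h2an* from 0.56 to 1.09, *Hist1h2bp* from 0.37 to 1.47 and *Hist1h4b* from 0.43 to 0.74. The cause was not tested.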
